A study of Homo sapiens with 9 samples.

Results

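The genes described here are 10 hydroxysteroid dehydrogenases and steroid reductases: HSD17B2, HSD17B6, HSD17B8, HSD17B10, HSD17B11, HSD17B12, HSD17B14, HSD11B2, SRD5A1 and SRD5A3. They were chosen by name, with earlier results of these data known. They are 10 of the 57773 features counted, and 8 of them had enough reads to be tested among 12901 genes. RNA was sequenced from HepG2, an established cell line from a human hepatocellular carcinoma that still makes many liver proteins. The cells were exposed for 72 h to 125 µM TBOEP, to 2.5 µM TBOEP, or to solvent alone. TBOEP, tris(2-butoxyethyl) phosphate, is added to plastics and floor polishes as a plasticiser and flame retardant. Each group had 3 libraries, all 3 groups carried 0.1% DMSO, and each library came from cells seeded, dosed, extracted and sequenced apart, at a passage number under 25. Per the labels, both concentrations were below those that harm the cells.

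Hydroxysteroid dehydrogenases move hydrogen on and off the hydroxyl and keto groups of steroids, which switches hormones between active and inactive forms. Steroid reductases saturate the ring double bond of steroids such as testosterone. Several members of the HSD17B family act mainly on other substrates, among them the acyl chains built in mitochondria and in the endoplasmic reticulum, and the liver is a main site where circulating steroids are inactivated and reduced.

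The libraries held 2480964 to 11885877 reads assigned to genes. The 2 shallowest were replicate 3 at 125 µM, with 2670690 reads, and replicate 3 at 2.5 µM, with 2480964. All 10 hepatocyte markers checked, among them ALB and HNF4A, had reads in all 9 libraries. Their summed level ran from 53351 to 65770 CPM (reads of a gene scaled to library size) at 2.5 µM. It ran from 38364 to 45196 CPM at 125 µM and from 65124 to 88428 CPM in controls. Of the 10, 6 fell at 125 µM, where 19.9% of all tested genes fell. The part of this shift in the results below was not tested. The endothelial gene KDR, the blood genes PTPRC, CD3E and HBB and the fibroblast genes DCN and LUM had 0 reads in every library. In bulk RNA, fewer cells expressing a gene and less RNA per cell cannot be told apart.

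HSD17B11 was the most abundant of the 10 genes per unit of exon length. In controls it averaged 32.9 ± 3.33 RPKM (exon reads scaled by exon length and library depth, SD, n = 3), and HSD17B10 followed at 17.2 ± 1.57 RPKM. HSD17B12 averaged 3.69 ± 0.214 RPKM, HSD17B2 3.18 ± 0.123 RPKM and HSD11B2 3.07 ± 0.318 RPKM in controls. The ranges of the libraries overlapped for HSD17B2 and HSD11B2, for SRD5A1 at 1.77 ± 0.578 RPKM and HSD17B8 at 0.895 ± 0.694 RPKM, and for HSD17B8 and SRD5A3 at 0.829 ± 0.182 RPKM, so these neighbours in the order were not separated. HSD17B14 at 0.245 ± 0.201 RPKM and HSD17B6 at 0.131 ± 0.132 RPKM came last and also overlapped. At 125 µM, HSD17B2 stood at rank 3 with 6.39 ± 1.57 RPKM and HSD17B8 at rank 4 with 4.02 ± 0.657 RPKM, while HSD11B2 stood at rank 7 with 1.97 ± 0.296 RPKM. At 2.5 µM the same pair of genes held ranks 3 and 4, with 4.93 ± 0.559 RPKM for HSD17B2 and 3.54 ± 0.251 RPKM for HSD17B8. Not all of these ranks were separated. HSD17B8 overlapped HSD17B12 at rank 5, with 3.25 to 3.73 and 3.35 to 3.79 RPKM at 2.5 µM and 3.47 to 4.75 and 3.10 to 3.96 RPKM at 125 µM. At 125 µM HSD17B8 also overlapped HSD17B2, and HSD11B2 overlapped SRD5A3.

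**Figure D1:**
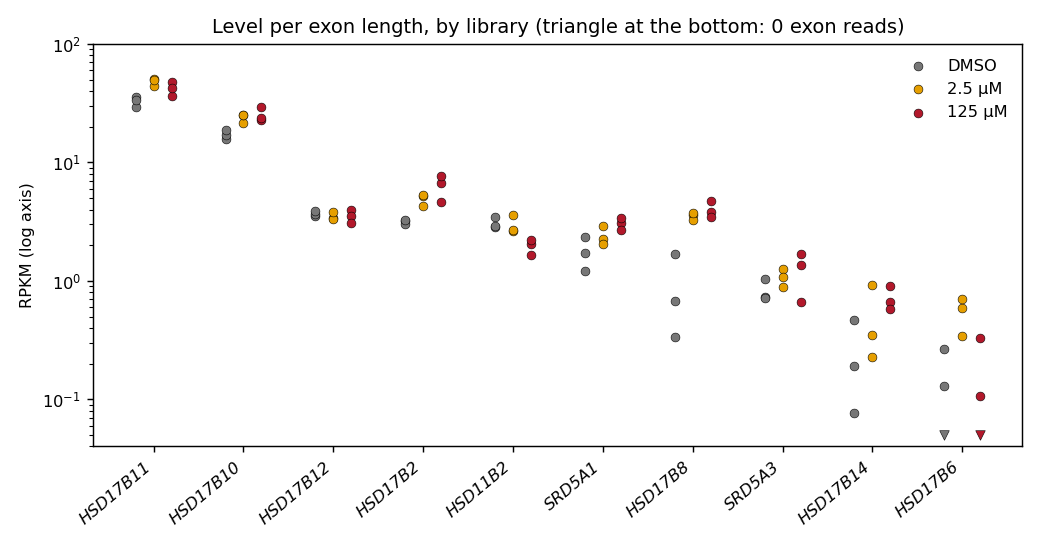
Deposited RPKM of the 10 genes on a log axis, 1 point per library, with DMSO, 2.5 µM and 125 µM side by side for each gene and genes ordered by their control mean. HSD17B11 and HSD17B10 lie above the other 8 genes in every library, and the 6 exposed libraries of HSD17B8 lie above its 3 controls.

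The largest fold change of the 8 tested genes was in HSD17B8, a mitochondrial enzyme that oxidises oestradiol and, with CBR4 as its partner subunit, reduces ketoacyl chains in mitochondrial fatty acid synthesis. HSD17B8 lies at chr6:33172419-33174608 (hg19, plus strand). The stretch of 200 bases that ends 14 bases before its RefSeq start, which is not the start in the files, is shown beside that of HSD17B10, since both are mitochondrial members and both rose at both concentrations. The sequences are those of RefSeq (GRCh38.p14) and were placed by exact match on GRCh37 at chr6:33172219-33172418 (plus strand) and chrX:53461337-53461536 (minus strand). Capitals mark the CCAAT box, a short promoter element, written as ATTGG where it is on the opposite strand.
HSD17B8: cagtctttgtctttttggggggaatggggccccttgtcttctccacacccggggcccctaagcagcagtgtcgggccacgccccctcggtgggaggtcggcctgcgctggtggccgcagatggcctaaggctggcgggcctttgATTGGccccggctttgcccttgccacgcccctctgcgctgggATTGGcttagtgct
HSD17B10: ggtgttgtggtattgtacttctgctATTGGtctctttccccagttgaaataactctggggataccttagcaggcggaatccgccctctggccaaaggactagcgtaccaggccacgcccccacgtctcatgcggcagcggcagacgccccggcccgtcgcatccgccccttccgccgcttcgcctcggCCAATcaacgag
The HSD17B8 stretch held the box at 69 and 27 bases before the RefSeq start, and the HSD17B10 stretch at 188 and 25 bases before its own. Promoter sequences were matched for 5 of the 10 genes, and 3 of these 5 held CCAAT on either strand, HSD17B11 being the other one, with 1 box at 73 bases before its RefSeq start. Of 34943 promoters cut to the same stretch, 28.3% held it. The GC box GGGCGG was in 3 of the 5 and in 39.0% of all promoters, and the nuclear receptor element AGGTCA was in 0 of the 5 and in 9.90% of all promoters.

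HSD17B8 was read at 4.88, 4.28 and 4.85 CPM at 2.5 µM. At 125 µM it was read at 4.73, 5.64 and 4.40 CPM, against 0.524, 1.19 and 2.31 CPM in controls. Every exposed library was above every control, and the 2 concentrations overlapped. The log2 fold change was 2.17 ± 0.40 (SE) at 125 µM against control, with an adjusted p of 0.000358 in edgeR's quasi-likelihood test with Benjamini-Hochberg adjustment. At 2.5 µM against control it was 2.03 ± 0.40, with an adjusted p of 0.00792. Between the 2 concentrations it was 0.14 ± 0.28, and 2 SE on either side spanned -0.42 to 0.69.

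These HSD17B8 values rest on few reads: 119 at 125 µM, 109 at 2.5 µM and 20 in controls, summed over 3 libraries, of which 87, 65 and 12 spanned exon junctions. The pooled ratio was 4.99 for 125 µM against control (95% exact interval 3.09 to 8.46, counting error only) and 4.36 for 2.5 µM (2.69 to 7.41). The gene met the read filter's level of 1.23 CPM in all 6 exposed libraries and in 1 of the 3 controls, so it entered the test through the groups where it was high. Without control replicate 1 the log2 fold change was 1.58 at 125 µM, with an adjusted p of 0.00381, and 1.44 at 2.5 µM, with an adjusted p of 0.0508, which ends the call at 2.5 µM. Without control replicate 3 the log2 fold changes were 2.70 and 2.57. In all, the 2.5 µM call of HSD17B8 was lost in 3 of 20 alternatives, limma on both RPKM scales being the others, with adjusted p up to 0.0639. DESeq2 gave HSD17B8 no adjusted p at 2.5 µM, so it made no call there either, and it is not among the 3. SLC39A7, a zinc transporter gene that ends 203 bases before HSD17B8, averaged 277 ± 16.9 CPM at 125 µM and 358 ± 11.4 CPM in controls, lower by a log2 fold change of -0.37 ± 0.08 (adjusted p = 0.00265).

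HSD17B10 is a mitochondrial dehydrogenase that works in isoleucine breakdown and is also a subunit of mitochondrial RNase P, which trims mitochondrial transfer RNAs. It lies at chrX:53458206-53461320 (hg19, minus strand). The HSD17B10 level was 24.2, 29.7 and 29.5 CPM at 2.5 µM. At 125 µM the level was 33.0, 26.1 and 26.1 CPM, against 19.3, 18.8 and 22.6 CPM in controls. All 6 exposed libraries were above all 3 controls. The log2 fold change was 0.51 ± 0.14 at 125 µM (adjusted p = 0.00846) and 0.46 ± 0.14 at 2.5 µM (adjusted p = 0.0469). Between the 2 concentrations it was 0.06 ± 0.13, with 2 SE spanning -0.21 to 0.32. The 125 µM call ended without 125 µM replicate 1 (adjusted p = 0.0572), and the 2.5 µM call ended in 13 of 20 alternatives, with adjusted p up to 0.199 without control replicate 1.

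**Figure D2:**
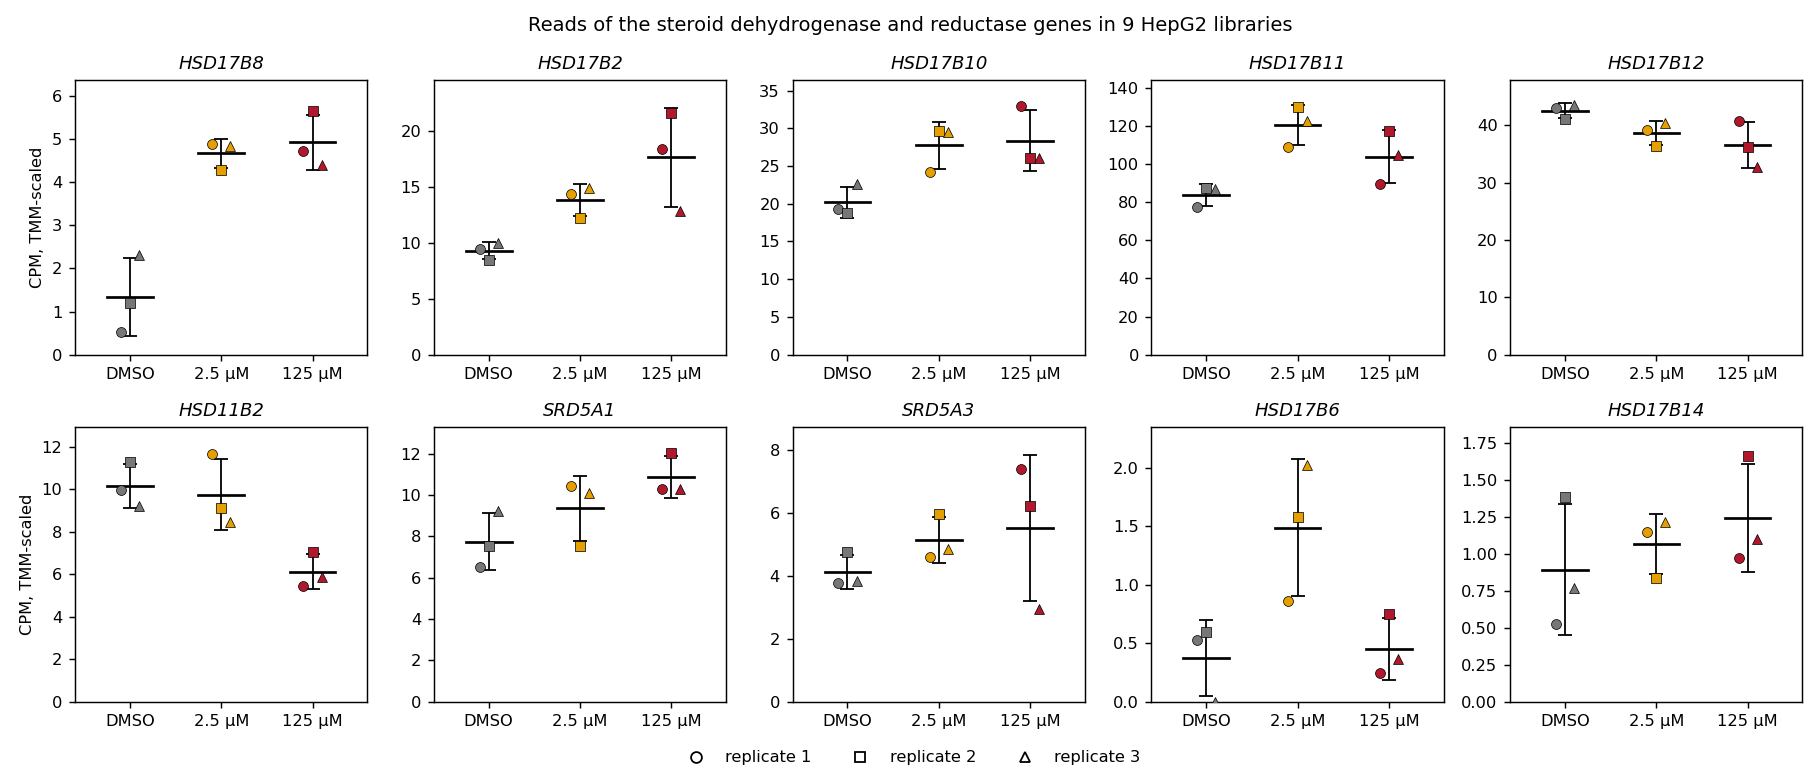
Levels of each of the 10 genes in CPM in the 9 libraries, in DMSO, 2.5 µM and 125 µM, with a panel and a scale of its own for each gene; bars are group means with SD (n = 3) and marker shapes are replicate numbers. HSD17B8 and HSD17B10 sit above the controls in all 6 exposed libraries, and HSD11B2 is below the other groups at 125 µM.

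HSD17B2 and HSD17B11 both oxidise steroids, and both rose at 125 µM. HSD17B2 turns oestradiol and testosterone into their less active keto forms, and lies at chr16:82068609-82132139 (hg19, plus strand). Its values at 2.5 µM were 14.3, 12.3 and 14.9 CPM. It was read at 18.4, 21.7 and 12.8 CPM at 125 µM and at 9.44, 8.51 and 10.0 CPM in controls. No exposed library overlapped the controls, while 125 µM replicate 3 fell inside the range of 2.5 µM. The log2 fold change was 0.99 ± 0.18 at 125 µM (adjusted p = 0.00054), and this call held in all 20 alternatives, with values between 0.82 and 1.12. At 2.5 µM the difference was 0.55 ± 0.18 (adjusted p = 0.0657), which missed the threshold. It passed without 125 µM replicate 3 (adjusted p = 0.0451) and with no read filter (adjusted p = 0.0305). The 2 concentrations differed by 0.44 ± 0.17 (adjusted p = 0.086), and by 0.56 (adjusted p = 0.0334) without 125 µM replicate 3.

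HSD17B11 is a lipid droplet enzyme that oxidises androstanediol to androsterone, and lies at chr4:88257762-88312538 (hg19, minus strand). The 2.5 µM values were 109, 130 and 122 CPM. HSD17B11 was read at 89.4, 117 and 105 CPM at 125 µM and at 77.3, 87.5 and 87.0 CPM in controls. Both exposed groups lay above the controls, and they overlapped each other. The log2 fold change was 0.31 ± 0.11 at 125 µM (adjusted p = 0.0325) and 0.52 ± 0.11 at 2.5 µM (adjusted p = 0.0108). The difference of 125 µM from 2.5 µM, -0.21 ± 0.11, did not pass (adjusted p = 0.206). The 125 µM call ended in 6 of 20 alternatives: exon reads alone (adjusted p = 0.0624), without 125 µM replicate 2 (0.198) or 3 (0.0669), without control replicate 1 (0.137) or 3 (0.0516), and without the 2 shallow libraries (0.0734). The 2.5 µM call ended without control replicate 1 (adjusted p = 0.0614), without the 2 shallow libraries (0.0579) and in limma on both RPKM scales. RP11-529H2.2, which overlaps the end of HSD17B11, had 124 reads against 6793 for HSD17B11. It averaged 0.586 ± 0.193 CPM at 125 µM and 2.89 ± 0.781 CPM in controls, and its part in the HSD17B11 reads was not tested. HSD17B13, a close relative of HSD17B11 known from hepatocyte lipid droplets, had 16 reads over all 9 libraries and was not tested.

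HSD11B2 was the 1 member that fell past the threshold, at 125 µM alone of the 2 concentrations. HSD11B2 turns cortisol into inactive cortisone and so shields the mineralocorticoid receptor in the kidney, and it lies at chr16:67464555-67471456 (hg19, plus strand). The 2.5 µM libraries gave 11.7, 9.11 and 8.48 CPM. Its level was 5.46, 7.05 and 5.87 CPM at 125 µM and 9.96, 11.3 and 9.24 CPM in controls. The 125 µM libraries were below all 6 others, and the 2.5 µM libraries overlapped the controls. The log2 fold change was -0.70 ± 0.19 at 125 µM against control (adjusted p = 0.00856) and -0.02 ± 0.18 at 2.5 µM against control (adjusted p = 0.999), where 2 SE spanned -0.38 to 0.34. The 2 concentrations themselves differed by -0.68 ± 0.19 (adjusted p = 0.0237). The fall against control missed the threshold in 1 of 20 alternatives, without 125 µM replicate 1 (-0.59, adjusted p = 0.051). The difference between the concentrations missed it without 125 µM replicate 1 (adjusted p = 0.114) or 3 (0.0573), without 2.5 µM replicate 1 (0.122), without the 2 shallow libraries (0.0509), in DESeq2 (0.0654) and in limma on both RPKM scales (0.0879 and 0.0918). Counting exon reads alone, the fall against control was -0.79 (adjusted p = 0.00545). Few HSD11B2 reads spanned exon junctions: 26 at 125 µM, 37 at 2.5 µM and 15 in controls. Scaled to library size they averaged 0.985 ± 0.440, 1.37 ± 0.515 and 0.738 ± 0.327 CPM, so they did not show the fall against control. Of the receptors these enzymes serve, the glucocorticoid receptor NR3C1 averaged 49.6 ± 3.33 CPM at 125 µM and 51.9 ± 7.14 CPM in controls, while the mineralocorticoid receptor NR3C2 had 43 reads in all and was not tested.

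SRD5A1 and SRD5A3 are the steroid reductases of the set. SRD5A1 turns testosterone into dihydrotestosterone and also reduces glucocorticoids in the liver, and lies at chr5:6633456-6669675 (hg19, plus strand). Its 2.5 µM values were 10.4, 7.53 and 10.1 CPM. SRD5A1 was read at 10.3, 12.0 and 10.3 CPM at 125 µM and at 6.50, 7.52 and 9.24 CPM in controls. The 125 µM libraries were above all controls, and the 2.5 µM libraries overlapped both other groups. SRD5A1 rose at 125 µM by 0.55 ± 0.19 (adjusted p = 0.0317), and its difference at 2.5 µM, 0.29 ± 0.20, did not pass (adjusted p = 0.37). The call ended in DESeq2 (adjusted p = 0.0954), without 125 µM replicate 1 (0.0502) or 2 (0.156) and without control replicate 1 (0.172) or 2 (0.05).

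SRD5A3 makes dolichol from polyprenol, which carries the sugar chains of N-glycans, and lies at chr4:56212276-56239263 (hg19, plus strand). The 2.5 µM libraries gave 4.59, 5.95 and 4.85 CPM. It was read at 7.40, 6.22 and 2.94 CPM at 125 µM and at 3.77, 4.75 and 3.85 CPM in controls. The lowest and the highest of its 9 values were both at 125 µM, and replicate 3, the low one, had 8 reads. The difference at 125 µM, 0.57 ± 0.27, did not pass (adjusted p = 0.104), and passed without 125 µM replicate 3 (0.73, adjusted p = 0.0257) and without both shallow libraries (0.73, adjusted p = 0.0306). At 2.5 µM the difference was 0.35 ± 0.27 (adjusted p = 0.439).

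HSD17B12, the ketoacyl reductase of very long chain fatty acid elongation, did not pass in any comparison. It lies at chr11:43577986-43878167 (hg19, plus strand). Its level was 36.4 to 40.4 CPM at 2.5 µM. It was read at 32.7 to 40.8 CPM at 125 µM and at 41.2 to 43.6 CPM in controls, so neither exposed group overlapped the controls in total gene reads. In RPKM, from exon reads, both did. The RPKM ranges were 3.10 to 3.96 at 125 µM, 3.35 to 3.79 at 2.5 µM and 3.51 to 3.92 in controls. The log2 difference was -0.20 ± 0.10 at 125 µM (adjusted p = 0.13) and -0.15 ± 0.10 at 2.5 µM (adjusted p = 0.366), with 2 SE spanning -0.40 to 0.00253 and -0.35 to 0.05. The long noncoding RNA RP11-613D13.5, which overlaps the end of HSD17B12, had 1092 reads and fell at 125 µM, with 13.5 ± 3.33 CPM there and 20.2 ± 3.92 CPM in controls (log2 fold change -0.64 ± 0.18, adjusted p = 0.00967). Whether the counting used strand is not given in the sources used here, so reads of overlapping genes cannot be told apart.

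HSD17B6 and HSD17B14 were too low to be tested. HSD17B6, which turns androstanediol back into dihydrotestosterone, lies at chr12:57145945-57181574 (hg19, plus strand) and had 9, 17 and 5 reads at 2.5 µM. It had 2, 9 and 1 reads at 125 µM and 5, 3 and 0 in controls. Scaled to library size, the 2.5 µM values of 0.861, 1.58 and 2.02 CPM were above every library of the other groups. The pooled ratio of 2.5 µM to control was 3.10 (95% exact interval 1.39 to 7.80), and in a fit with no read filter its adjusted p was 0.0924. PRIM1, which overlaps the start of HSD17B6 and had 1092 reads against 51 for HSD17B6, averaged 18.5 ± 0.994 CPM at 2.5 µM and 12.2 ± 4.00 CPM in controls; its part in the HSD17B6 reads was not tested. HSD17B14, a cytosolic enzyme that oxidises oestradiol, lies at chr19:49316274-49339935 (hg19, minus strand) and had 8, 20 and 3 reads at 125 µM, 12, 9 and 3 at 2.5 µM and 5, 7 and 3 in controls. Its pooled ratios to control were 1.73 (0.908 to 3.46) at 125 µM and 1.28 (0.644 to 2.62) at 2.5 µM, both with intervals that hold 1. These ratios include intron reads, which were 25.8% of HSD17B14 reads at 125 µM, 54.2% at 2.5 µM and 66.7% in controls. Exon reads numbered 23, 11 and 5. RPKM ran from 0.577 to 0.907 at 125 µM, from 0.226 to 0.931 at 2.5 µM and from 0.0762 to 0.467 in controls. The 125 µM and control ranges were apart, on few reads, and this difference was not tested.

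Of the 8 genes tested, 6 passed the threshold of 0.05 at 125 µM against control, 5 higher and 1 lower. Over all tested genes 40.2% passed, 20.3% higher and 19.9% lower. In CPM of total gene reads, the 125 µM libraries did not overlap the controls in 7 of the 8 genes, 5 higher and 2 lower. Over all tested genes this held for 50.9%, 25.6% higher and 25.2% lower. At 2.5 µM against control 3 passed, all higher, where 11.0% of all genes passed, 6.02% higher and 5.03% lower. The groups did not overlap in 5 of the 8 there, 4 higher and 1 lower, against 28.2% of all genes, 14.4% higher and 13.8% lower. Between the concentrations 1 gene passed, HSD11B2, where 14.9% of all genes passed, 7.48% higher and 7.44% lower. It was also the 1 gene whose groups did not overlap, against 32.8% of all genes, 16.9% higher and 15.9% lower. Both comparisons with control share the same 3 control libraries, so they are not independent. The 10 genes were chosen with earlier results of these data known, so the counts are a description. Among 12 other tested hydroxysteroid dehydrogenases and steroid reductases, 5 fell and 2 rose at 125 µM. Summed over the 10 genes, the level was 220, 237 and 239 CPM at 2.5 µM. The sum was 211, 235 and 201 CPM at 125 µM and 171, 183 and 189 CPM in controls, and HSD17B11 gave 42.4 to 54.7% of these reads.

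**Figure D3:**
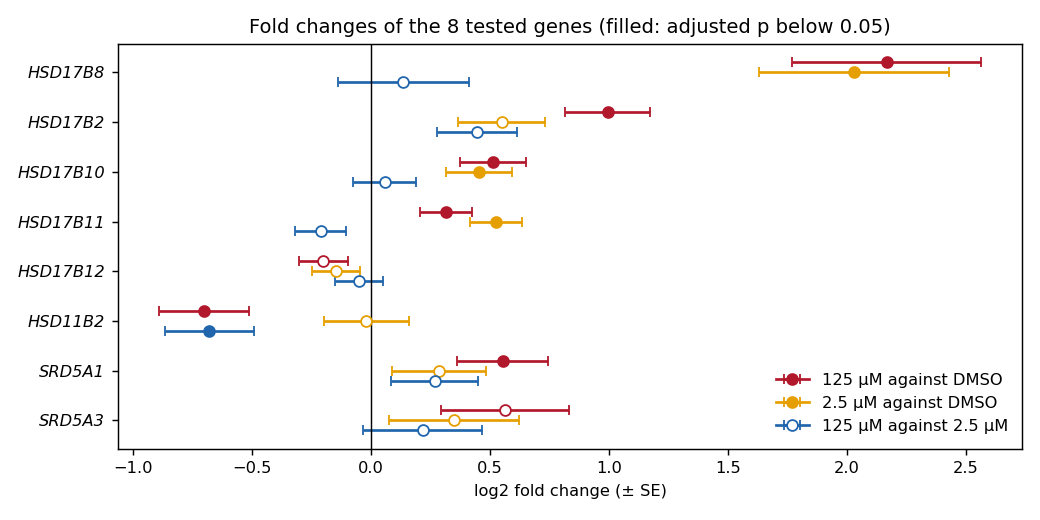
Log2 fold changes of the 8 tested genes with SE in edgeR, for 125 µM against DMSO, 2.5 µM against DMSO and 125 µM against 2.5 µM; filled points have an adjusted p below 0.05. HSD17B8 lies near 2 against DMSO at both concentrations, and HSD11B2 is lower at 125 µM against both other groups.

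**Figure D4:**
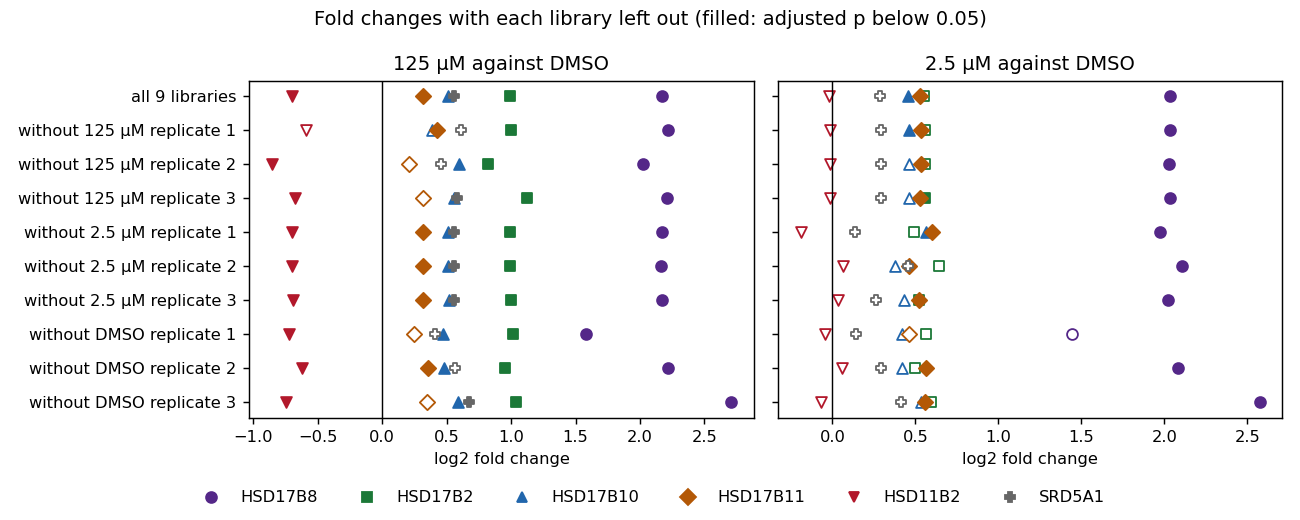
Log2 fold changes of 6 genes in edgeR with all 9 libraries and with each library left out, for 125 µM against DMSO on the left and 2.5 µM against DMSO on the right; filled points have an adjusted p below 0.05. HSD17B8 and HSD17B2 stay filled at 125 µM in every setting, and every point at 2.5 µM is open without DMSO replicate 1.

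The share of reads in introns differed among the genes. Intervals on reads summed over a group cover counting error only, so the share in each library is given where the groups are set side by side. In SRD5A1, introns held 27.4% of reads at 2.5 µM (95% exact binomial interval 21.6 to 33.9). They held 17.8% at 125 µM (13.4 to 23.1) and 34.6% in controls (26.6 to 43.2). By library the SRD5A1 share was 14.1, 18.6 and 25.0% at 125 µM and 41.9, 34.2 and 22.2% in controls, so the groups overlapped. Counting exon reads alone, the SRD5A1 log2 fold change at 125 µM was 0.80, with an adjusted p of 0.00893. In HSD17B12 the share was 16.8% at 125 µM (14.4 to 19.5) and 23.4% in controls (20.4 to 26.5). By library it was 16.7, 16.5 and 19.1% at 125 µM and 24.6, 24.5 and 18.8% in controls, and these groups overlapped too. In HSD17B8 it was 3.36% (0.923 to 8.38) at 125 µM and 20.0% (5.73 to 43.7) in controls, where 20 reads were counted. In HSD11B2 it was 19.2% (13.1 to 26.5) at 125 µM and 17.0% (11.9 to 23.2) in controls. In HSD17B10 and HSD17B11 introns held 1.14% and 1.06% of all reads. Over all genes introns held 6.89 to 7.34% of reads at 125 µM, 6.46 to 8.97% at 2.5 µM and 7.73 to 8.60% in controls, and the part of this in the results was not tested.

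**Figure D5:**
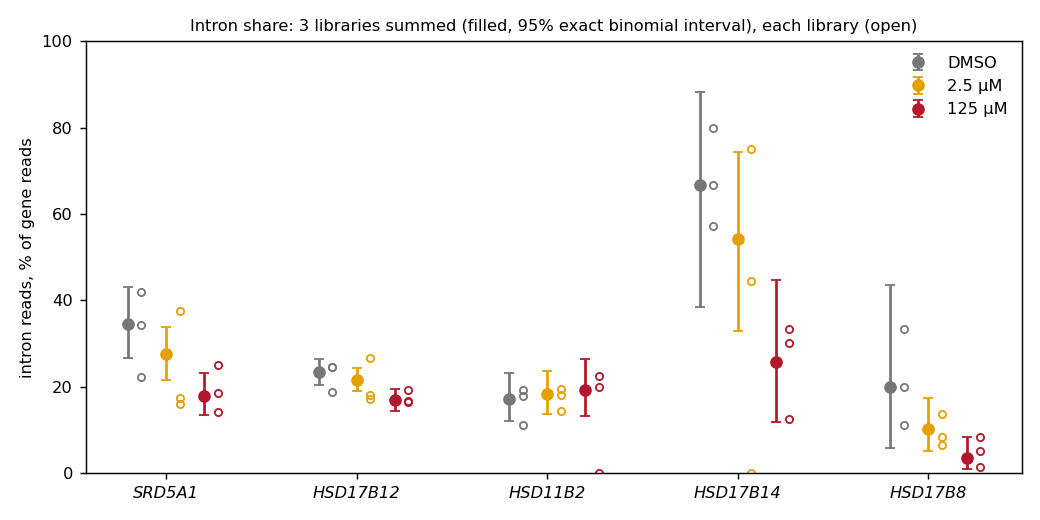
Share of reads in introns, in percent of gene reads summed over 3 libraries, for 5 genes in DMSO, 2.5 µM and 125 µM as filled points with exact binomial intervals at 95% for counting error, and the share in each library as open points. In SRD5A1 the highest library at 125 µM (25.0%) lies above the lowest control (22.2%).

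Among 21 other hydroxysteroid dehydrogenases and steroid reductases, 12 were tested, and at 125 µM 5 fell and 2 rose, where 19.9% of all tested genes fell and 20.3% rose. The median log2 fold change was -0.42 in the 12 and 0.00 in all tested genes. AKR1C2, AKR1C1 and HSD17B7 had the smallest adjusted p. The reductases AKR1C2 and AKR1C1 inactivate progesterone and other hormones. AKR1C2 averaged 339 ± 97.1 CPM at 125 µM and 1056 ± 174 CPM in controls (log2 fold change -1.65 ± 0.22, adjusted p = 7.8e-05), and AKR1C1 averaged 1068 ± 295 CPM at 125 µM and 2720 ± 430 CPM in controls (-1.35 ± 0.21, adjusted p = 0.000233). HSD17B7, which acts in cholesterol synthesis, averaged 7.53 ± 1.13 CPM at 125 µM and 14.9 ± 1.21 CPM in controls (-0.94 ± 0.16, adjusted p = 0.000324). AKR1C3 (-0.53) and AKR1C4 (-2.34) fell too, while H6PD (0.39), which supplies NADPH to HSD11B1, and HSDL1 (0.31) rose. These 4 were chosen after their values were seen, and the AKR1C genes are similar in sequence, so the counting could split their reads. AKR1C4 had 70 reads in all and averaged 0.503 ± 0.519 CPM at 125 µM and 1.61 ± 0.711 CPM in controls. Its 125 µM level was under the read filter's 1.23 CPM, so it entered the test through the other groups. At 2.5 µM 1 of the 12 passed, where 11.0% of all tested genes passed. AKR1D1, the bile acid reductase, rose there by 0.81 ± 0.21 (adjusted p = 0.0257). Between the concentrations 6 fell and 0 rose, where 7.44% of all tested genes fell, with the smallest adjusted p in AKR1C2 (log2 fold change -1.18), AKR1C3 (-0.54) and HSD17B7 (-0.72). HSD11B1, the counterpart that regenerates cortisol, and HSD3B1 had 0 reads in all 9 libraries.

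Among 17 genes of steroid synthesis and sulfation, 12 were tested and at 125 µM 3 rose and 3 fell, where 40.2% of all tested genes passed, and the median log2 fold change was 0.08. POR, which passes electrons to cytochromes P450, rose to 361 ± 27.8 CPM at 125 µM, against 251 ± 15.9 CPM in controls (0.53 ± 0.09, adjusted p = 0.000366). SULT1E1, which sulfates oestrogens, fell to 0.724 ± 0.112 CPM, against 4.43 ± 0.914 CPM in controls (-2.51 ± 0.40, adjusted p = 0.000125). It had 177 reads in all. Its 125 µM level was under the read filter's 1.23 CPM, so it entered the test through the other groups. CYP21A2, a steroid hydroxylase with a near-identical pseudogene and an overlap with TNXB, was at 1.62 ± 0.543 CPM at 125 µM and 7.62 ± 1.94 CPM in controls, and these reads are uncertain. CYB5A (0.49), CYP19A1 (0.85) and PAPSS2 (-1.68) also passed and were chosen after their values were seen. PAPSS2 had 63 reads in all, with 0.343 ± 0.332 CPM at 125 µM and 1.59 ± 0.363 CPM in controls, so the same limit holds for it. At 2.5 µM CYP21A2 alone of the 12 passed (-0.97), where 11.0% of all tested genes passed. Between the concentrations 2 rose (POR and CYB5A) and 2 fell (SULT1E1 and CYP21A2), where 7.48% of all tested genes rose and 7.44% fell. In that comparison CYP21A2 was named with its values in view. Of 8 steroid receptors and carriers 3 were tested, and 1 of these passed at 125 µM, where 40.2% of all tested genes passed. SERPINA6, the cortisol carrier of blood, fell there by 0.52 on the log2 scale, to 108 ± 4.92 CPM against 154 ± 7.48 CPM in controls. It was lower than at 2.5 µM as well (-0.32, adjusted p = 0.0263). None of the 3 passed at 2.5 µM against control, where 11.0% of all tested genes passed. The oestrogen receptor ESR1 had 8 reads over all libraries.

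The partners of HSD17B8 in mitochondrial fatty acid synthesis numbered 8, of which 7 were tested, with a median log2 fold change of 0.57 at 125 µM. Of the 7, 3 rose and 1 fell at 125 µM, where 20.3% of all tested genes rose and 19.9% fell. The 3 that rose were NDUFAB1, the acyl carrier protein (0.71 ± 0.13), MECR, the enoyl reductase (0.92 ± 0.21), and LIAS, which makes lipoate (0.57 ± 0.15). CBR4, the partner subunit of HSD17B8, fell to 22.0 ± 2.80 CPM at 125 µM, against 29.8 ± 0.745 CPM in controls (-0.40 ± 0.12, adjusted p = 0.016); it overlaps PALLD and was chosen after its values were seen. At 2.5 µM NDUFAB1 rose by 0.60 ± 0.13 (adjusted p = 0.0115) and no other passed, where 11.0% of all tested genes passed. Between the concentrations MECR was higher at 125 µM (0.63). Around HSD17B10, 11 genes of mitochondrial RNase P and branched-chain amino acid breakdown were tested. At 125 µM 2 of the 11 rose, BCAT1 (0.56) and DLD (0.31), and 1 fell, ACADSB (-0.37), against the same shares of all tested genes. None passed at 2.5 µM, where 11.0% of all tested genes passed. ACADSB was also lower at 125 µM than at 2.5 µM (-0.36). The median log2 fold change of these 11 was 0.07 at 125 µM.

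Around HSD17B12, 10 genes of very long chain fatty acid elongation were tested, with a median log2 fold change of -0.02 at 125 µM. There 2 of the 10 rose and 3 fell, where 20.3% of all tested genes rose and 19.9% fell. ELOVL2, which elongates polyunsaturated chains, fell to 139 ± 12.2 CPM at 125 µM, against 224 ± 16.4 CPM in controls (-0.70 ± 0.10, adjusted p = 0.000111). It also fell at 2.5 µM, to 174 ± 20.5 CPM against the same controls (-0.35 ± 0.10, adjusted p = 0.0377). PTPLA (0.54), a dehydratase, rose at 125 µM, and TECR (-0.33), the last reductase of the cycle, fell there. ELOVL5 rose (0.25) and PTPLAD2 fell (-1.51) at 125 µM, and both were chosen after their values were seen. PTPLAD2 had 71 reads in all, with 0.654 ± 0.393 CPM at 125 µM and 1.43 ± 0.432 CPM in controls. Its 125 µM level was under the read filter's 1.23 CPM, so it entered the test through the other groups. Between the concentrations ELOVL2 was lower (-0.35) and ELOVL5 higher (0.29) at 125 µM. Around SRD5A3, 19 genes of dolichol and N-glycan precursor synthesis were tested. At 125 µM 4 of the 19 rose and 0 fell, where 20.3% of all tested genes rose and 19.9% fell, and the median log2 fold change was 0.16. The rises included those of DHDDS, which builds the dolichol chain (0.52 ± 0.14), and of DPM2 (1.18 ± 0.28) and DPM3 (0.98 ± 0.27), subunits of the dolichol mannose synthase. None of the 19 passed at 2.5 µM, where 11.0% of all tested genes passed. Between the concentrations DPM2 (1.18) and DHDDS (0.50) were higher and ALG1 (-0.43) lower at 125 µM, where 7.48% of all tested genes were higher and 7.44% lower.

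For HSD17B8, HSD17B2 and HSD11B2, the 3 tested members whose group means ranged most, the genes with the most similar profiles were sought by the root mean square difference of centred log2 CPM over the 9 libraries. RP11-625L16.1 differed from HSD17B8 by 0.256 and RP11-730K11.1 by 0.328, where the median tested gene differed by 0.968. RP11-625L16.1 averaged 13.0 CPM at 125 µM and 4.29 CPM in controls. CDK18 (0.123) and MYO1A (0.127) came closest to HSD17B2, and CDK18 averaged 48.2 CPM at 125 µM and 28.6 CPM in controls. TMEM169 (0.0765) and FAM3B (0.106) came closest to HSD11B2, and FAM3B averaged 20.1 CPM at 125 µM and 32.2 CPM in controls. The 9 libraries share their groups and depths, so these likenesses are a description. RP11-730K11.1 overlaps SORL1 and TMEM169 overlaps PECR, so the counts of both may hold reads of the other gene.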

How the data were processed

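Poly(A)-selected RNA was sequenced as paired 50 bp reads from libraries of the TruSeq Stranded mRNA kit, per the labels' protocols. CLC Genomics Workbench mapped them to hg19 and counted them per gene, as the series' design text states; the sources used here give neither its version nor the strand setting of the counting. The deposited counts (total, unique, exon, intron and junction reads per gene) are raw whole numbers, per the file headers. RPKM, also deposited, divides exon reads by exon length and library depth, per the file headers. The authors' quantile-normalised values and fold changes were not used.

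Total gene reads, which include intron reads, were tested as deposited. filterByExpr kept 12901 genes, libraries were scaled by TMM, and 1 model of the 3 groups over all 9 libraries, with no other term, was tested by quasi-likelihood (edgeR 4.0.16, R 4.3.3). P-values are two-sided with Benjamini-Hochberg adjustment over all 12901 genes, at a threshold of 0.05; CPM are TMM-scaled and SE are the model's. The common biological coefficient of variation was 10.0%. Depth ran from 2480964 to 11885877 reads, at which 3 reads equal 1.21 and 0.249 CPM. Intervals of pooled reads are exact binomial at 95% and cover counting error only, as reads carry no molecular identifiers. Simulated counts with known changes were used to test the edgeR steps.

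The 10 genes and the gene lists were chosen with earlier results of these data known. From each list, in each comparison, the text names at most the 3 genes of lowest adjusted p that passed, and says where a further gene was picked with its values in view. Genes that did not pass or were not tested, among them NR3C1, NR3C2, ESR1, HSD11B1, HSD3B1 and HSD17B13, are named outside this rule. Some list genes are not reported here. Starts have 1 added to the files' value: 68.8% of 33372 features matched by name to GENCODE v44 on GRCh37 then began at the same base, against 1.16% without. Promoter stretches ran from 213 to 14 bases before the start of RefSeq promoters. Alternatives were DESeq2 1.42.0, upper-quartile scaling, no filter, a stricter filter (10 reads and 1 CPM in 3 libraries), exon or unique reads, limma 3.58.1 on log2(RPKM + 0.5) and log2(RPKM + 0.1), a replicate block, each library left out, and fits of 2 groups. Of the genes named beside the 10, ALG1, CBR4, CYP21A2, DLD, POR, PTPLAD2 and TECR overlap a second tested gene, so their counts may hold its reads.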

Additional observations from a re-analysis of the deposited data

Results flagged for a closer look

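HSD11B2 drew notice because its response differed between the 2 concentrations by a test of the difference itself. At 125 µM it was read at 6.13 ± 0.827 CPM and at 2.5 µM at 9.75 ± 1.69 CPM (SD, n = 3 each), a log2 fold change of -0.68 ± 0.19 with an adjusted p of 0.0237 in edgeR's quasi-likelihood test with Benjamini-Hochberg adjustment. All 3 libraries at 125 µM were below all 3 at 2.5 µM. The call was lost in 7 of 20 alternatives, with adjusted p over all 20 between 0.0135 and 0.122. Few HSD11B2 reads spanned exon junctions, 26 at 125 µM and 37 at 2.5 µM.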

How the results depend on the processing

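At 125 µM against control, 6 genes passed where 40.2% of all tested genes did, 5 in DESeq2 (32.5% of all) and 5 with exon reads (41.4%), and leaving out each library in turn gave 3 to 6, the 3 without 125 µM replicate 1 (32.9% of all), and 4 without 125 µM replicate 2 (27.9%) or control replicate 1 (28.1%). At 2.5 µM against control, 3 passed, and leaving out each library gave 0 to 3, the 0 without control replicate 1, where 213 genes of all tested passed against 1425 with all 9 libraries. At 2.5 µM DESeq2 called 1 (it gave HSD17B8 and SRD5A3 no adjusted p), and limma on log2(RPKM + 0.5) called 0 of the 8 and 216 genes in all, and on log2(RPKM + 0.1) 0 of the 8 and 0 genes in all. Without the 2 shallowest libraries, an alternative chosen after seeing the data, 1 passed at 2.5 µM and 125 genes in all. Between the concentrations 1 passed (14.9% of all), 0 in DESeq2 (10.6%), 0 in limma on log2(RPKM + 0.5) (7.50%), 0 on log2(RPKM + 0.1) (6.70%), and 0 to 1 with a library left out; the 0 came without 125 µM replicate 1 or 2.5 µM replicate 1, and without 125 µM replicate 3 or without both shallow libraries the 1 was HSD17B2 in place of HSD11B2. The causes were not tested.

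Same-numbered libraries correlated between -0.24 and 0.18 in their deviations from the group means, with 4 of 9 pairs over 0.1, so the numbers were not taken as pairs. With the replicate number as a block, 6 passed at 125 µM, 2 at 2.5 µM (HSD17B10 was lost, adjusted p = 0.0644) and 1 between the concentrations, with 5066, 1274 and 1771 genes in all.

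Differences that turned sign, none of which passed in any alternative, were those of HSD11B2 at 2.5 µM against control (0.00447 with upper-quartile scaling, 0.0365 without the shallow libraries, -0.191 to 0.067 with each library left out) and 3 between the concentrations. Of these, HSD17B8 ran from -0.00285 to 0.196 and HSD17B10 from -0.0777 to 0.136 with each library left out. HSD17B12 ran from -0.138 to 0.00137 likewise, and stood at 0.00405 and 0.00402 in limma with 0.5 and 0.1 added and at 0.0237 without the shallow libraries. Limma on log2(RPKM + 0.1) put the median log2 fold change of all genes at 125 µM at 0.11, against 0.00356 in edgeR. Depth limits HSD17B6 and HSD17B14, which were not tested, and the control level of HSD17B8, with 20 reads.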
